A study of Mus musculus with 6 samples.

Results

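The genes examined here encode the growth factors that mouse oocytes secrete, Gdf9, Bmp15 and Bmp6, and the Kit receptor with its ligand Kitl. These 5 genes were chosen by symbol from 24421 genes in the count table, and all 5 were among the 14845 genes with enough counts to be tested. Expression was measured by RNA-seq in germinal vesicle (GV) oocytes, fully grown oocytes still held in the prophase of meiosis. DKO oocytes came from Ring1 -/-; Rnf2 f/f; Zp3-cre females (3 libraries), and SKO oocytes came from Ring1 -/-; Rnf2 f/f females without the transgene (3 libraries). Ring1 and Rnf2 encode the alternative E3 ubiquitin ligases of Polycomb repressive complex 1 (PRC1), which marks histone H2A at silenced genes, and Zp3-cre is active in growing oocytes. Both genotypes were null for Ring1 and shared a mixed FVB, 129/Sv and C57BL/6J background. The females were about 3 months old, and each library pooled 15 oocytes of 1 mouse after granulosa cells had been pipetted off. No wild type was included, and only DKO carried the transgene, so effects of Zp3-cre and of the Rnf2 deletion cannot be told apart. The comparison asks what losing Rnf2 in growing oocytes that already lack Ring1 did to the transcripts of these signals.

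GDF9 and BMP15 are TGF-beta family ligands that the oocyte secretes from early growth onwards, and through BMPR2 and type I receptors on granulosa cells they drive follicle growth and cumulus function. BMP6, a ligand of the same family, is made by the oocyte as well. Kit ligand travels the other way: granulosa cells make it, and it acts on the Kit receptor tyrosine kinase of the oocyte, where the PI3K pathway, AKT and the transcription factor FOXO3 lie downstream and govern the awakening and growth of the oocyte.

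The sequences just upstream of annotated starts of these genes differ in base composition. Of these, 3 are shown because PRC1 is known to act mainly at CpG-rich start sites. Each run gives the 250 bases before an annotated start in RefSeq's GRCm38.p6 annotation, 5′ to 3′ on the strand of the gene, with every CpG dinucleotide in capitals. Bmp15 lies at chrX:6320725-6320974 on the minus strand, Kit at chr5:75574737-75574986 on the plus strand, and Kitl at chr10:100015571-100015820 on the plus strand, before a start that lies inside the annotated gene. As the annotated Kitl gene begins at 100015615, most of the Kitl run lies within the gene.
Bmp15: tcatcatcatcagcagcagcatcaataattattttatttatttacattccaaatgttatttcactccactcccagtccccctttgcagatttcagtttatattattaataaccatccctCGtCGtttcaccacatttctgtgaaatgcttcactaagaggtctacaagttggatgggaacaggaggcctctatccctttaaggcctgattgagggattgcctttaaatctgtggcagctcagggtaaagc
Kit: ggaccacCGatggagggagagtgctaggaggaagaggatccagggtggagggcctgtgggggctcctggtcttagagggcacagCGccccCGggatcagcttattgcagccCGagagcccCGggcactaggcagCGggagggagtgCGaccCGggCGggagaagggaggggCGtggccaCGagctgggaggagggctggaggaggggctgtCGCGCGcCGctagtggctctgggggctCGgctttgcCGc
Kitl: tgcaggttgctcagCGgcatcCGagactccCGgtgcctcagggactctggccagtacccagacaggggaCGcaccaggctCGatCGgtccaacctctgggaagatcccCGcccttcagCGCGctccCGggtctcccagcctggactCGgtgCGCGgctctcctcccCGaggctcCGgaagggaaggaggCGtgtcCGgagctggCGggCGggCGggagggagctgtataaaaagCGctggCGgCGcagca
The Bmp15 stretch held 2 CpGs and 40.4% GC, and 19.4% of 27025 promoters of the same length held fewer CpGs. Kit's stretch held 17 CpGs and 70.8% GC, with fewer CpGs in 76.4% of promoters. Kitl had 23 CpGs and 69.2% GC (fewer in 87% of promoters), and the stretch of Bmp6, not printed, had 22 CpGs and 68.8% GC (fewer in 85.4%). The median promoter held 6 CpGs and 52% GC. No window for Gdf9 was used here, so 4 of the 5 genes are covered.

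Motifs of oocyte transcription factors were searched in the same windows on both strands. CANNTG is the E-box that FIGLA, SOHLH1 and other basic helix-loop-helix factors recognise, and TAATTA and TAATTG are homeobox motifs of the kind that NOBOX and LHX8 bind. In Bmp15, TAATTA lay at -225 to -220 and the E-box CAAATG at -201 to -196 from the gene start. TAATTA was present in 4.9% of all promoters, TAATTG in either orientation in 7.34%, and an E-box in 66%. Bmp6 had the E-boxes CACGTG at -127 to -122 and CACCTG at -51 to -46, and neither Kit nor Kitl had any of these letters in its window. A match is a description of letters and does not show that a factor bound there.

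Total counts were 15521975 to 26652745 in DKO libraries and 22990699 to 26437540 in SKO libraries, and 3 counts, taken as the floor, stood for 0.113 to 0.193 CPM in DKO and 0.113 to 0.13 CPM in SKO (read counts scaled to a common size of library). The floor was scaled by total counts alone, without the TMM factors used for the other CPM values. Rnf2 had 56.3, 30.7 and 22.9 CPM in DKO libraries and 203, 180 and 188 CPM in SKO libraries, a log2 fold change of -2.38 (edgeR, adjusted p = 0.000349), and Ring1 had 19 counts in all DKO libraries together and 10 in all SKO libraries together. Of the 14845 genes tested, 17.3% were called higher in DKO and 7.41% lower. The split depended on scaling: 70% of calls were higher with TMM, 83% with library totals alone, and 30.7% when a GC and length trend was removed with its level in each library. All 12 oocyte markers were detected and tested, with Nlrp5, Zp3 and Zp2 the most abundant. Their summed level was 8157 to 9598 CPM in DKO and 11959 to 12867 CPM in SKO, with 7 of the 12 called lower and 1 higher. RNA was amplified before libraries were made, so reads are not independent molecules. In pooled oocytes, fewer cells expressing a gene and less RNA per cell cannot be told apart.

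Bmp15 and Kit were lower in DKO oocytes beyond the spread between libraries. Bmp15 fell to 62.5% of its SKO level and Kit to 56.4%. Gdf9, Bmp6 and Kitl did not pass the threshold: the estimates for Gdf9 and Bmp6 lay below 0, at 70.6% and 70.7% of the SKO level, and that for Kitl above 0, at 1.89 times the SKO level. A gene was called at an adjusted p under 0.05, with Benjamini-Hochberg adjustment over all 14845 genes. Except for the floor, CPM values use library sizes scaled with TMM, and each fold change is DKO over SKO.

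**Figure D1:**
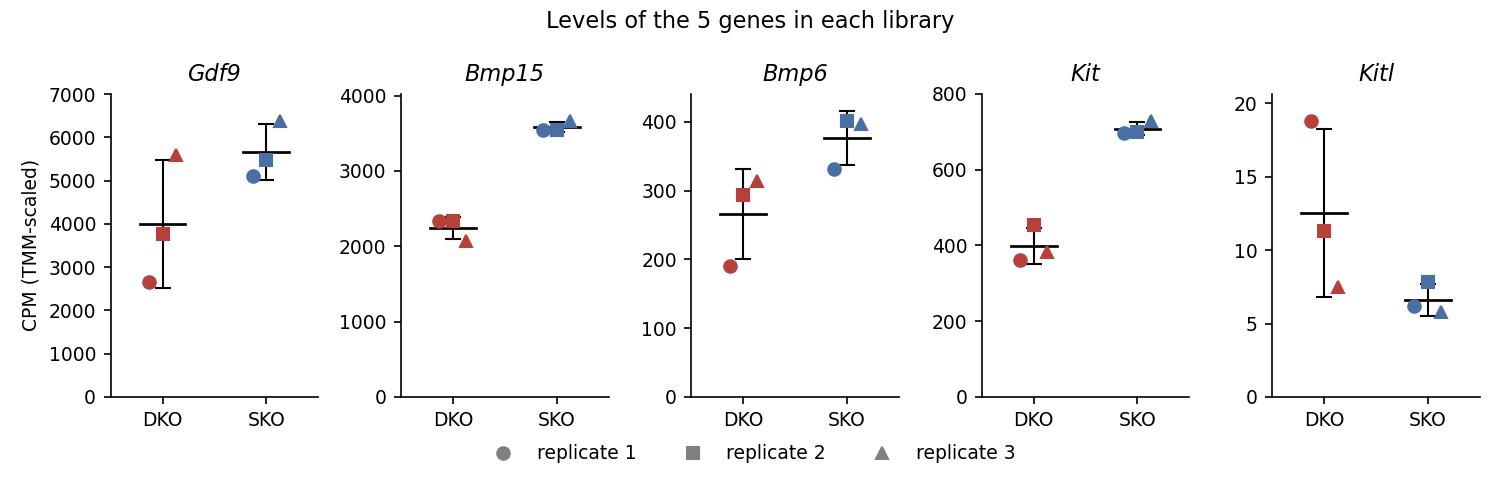
Level in CPM (TMM-scaled, linear axis from 0) of Gdf9, Bmp15, Bmp6, Kit and Kitl in the 3 DKO libraries (left, red) and the 3 SKO libraries (right, blue). Symbols mark replicate numbers, horizontal lines the mean and bars 1 SD, and only Bmp15, Bmp6 and Kit have every DKO library below every SKO library.

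Gdf9 (Entrez 14566, chromosome 11, 53430774 to 53437904, GRCm38) was the most abundant of the 5 per kilobase in both genotypes. It had 2651, 3756 and 5582 CPM in DKO replicates 1 to 3, against 5114, 5486 and 6375 CPM in SKO replicates 1 to 3. DKO replicate 3 lay inside the SKO range and the other two DKO libraries lay below it, so the groups overlapped. The means were 3997 ± 1480 CPM in DKO oocytes and 5658 ± 648 CPM in SKO oocytes (SD, n = 3 each). The log2 fold change was -0.50 with a standard error of 0.24 and a 95% interval of -1.05 to 0.04 (edgeR, adjusted p = 0.164). A level of 48.5% of SKO and one of 103% of SKO both lay within that interval. The call depended on DKO replicate 3, without which the value was -0.83 (edgeR, adjusted p = 0.00853), and it was -0.28 without DKO replicate 1. Removing a GC and length trend gave -0.74 (adjusted p = 0.0423), or -0.32 (adjusted p = 0.363) when the trend was centred in each library, a version added after the first value had been seen. The coefficient of variation over libraries was 37% in DKO and 11.5% in SKO. Gdf9 reads made up 0.3 to 0.539% of all counts in DKO libraries and 0.499 to 0.587% in SKO libraries.

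Bmp15 (Entrez 12155, chromosome X, 6314054 to 6320724), the closest relative of Gdf9 and its partner in heterodimers, gave the tightest values of the set. It had 2330, 2329 and 2068 CPM in DKO libraries and 3546, 3548 and 3661 CPM in SKO libraries. Every DKO library lay below every SKO library. The means of 2242 ± 151 CPM in DKO oocytes and 3585 ± 65.9 CPM in SKO oocytes (SD, n = 3 each) gave a log2 fold change of -0.68 (SE 0.14, interval -1.0 to -0.36, edgeR adjusted p = 0.00684). Between libraries of a genotype it varied by 6.72% in DKO and 1.84% in SKO (coefficient of variation).

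Bmp6 (Entrez 12161, chromosome 13, 38345716 to 38500314) had 191, 293 and 314 CPM in DKO libraries, against 331, 401 and 397 CPM in SKO libraries. The DKO libraries again lay below all SKO libraries, with replicate 1 lowest in each genotype. Its means were 266 ± 66 CPM in DKO oocytes and 377 ± 39.4 CPM in SKO oocytes (SD, n = 3 each). The log2 fold change of -0.50 (SE 0.20, interval -0.96 to -0.05) did not pass the threshold (edgeR, adjusted p = 0.102). That call depended on the setting. With the GC and length trend removed the value was -0.62 when the trend was centred in each library and -1.05 when it was not, with edgeR adjusted p = 0.0197 and 0.00162, and leaving out DKO replicate 3 gave -0.65 (adjusted p = 0.0403).

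Kit (Entrez 16590, chromosome 5, 75574987 to 75656722), the receptor tyrosine kinase through which the oocyte receives Kit ligand, had 362, 453 and 382 CPM in DKO libraries. SKO libraries had 696, 699 and 728 CPM. The highest DKO library stayed well under the lowest SKO library. Mean levels were 399 ± 47.7 CPM in DKO oocytes and 708 ± 17.5 CPM in SKO oocytes (SD, n = 3 each), and the log2 fold change was -0.83 (SE 0.15, interval -1.17 to -0.48, edgeR adjusted p = 0.00349). In this fit it was the largest fall among the 5 genes, while without DKO replicate 3 Kit stood at -0.80 and Gdf9 at -0.83. The interval placed Kit between 44.5% and 71.5% of its SKO level.

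Kitl (Entrez 17311, chromosome 10, 100015615 to 100100416), the ligand that granulosa cells supply, was the scarcest, with 330, 240 and 193 counts in DKO libraries and 154, 170 and 141 counts in SKO libraries. These stood for 18.8, 11.3 and 7.49 CPM in DKO and 6.2, 7.83 and 5.79 CPM in SKO. DKO replicate 3 lay within the SKO range, and DKO replicate 1 was the highest library. Means were 12.5 ± 5.75 CPM in DKO oocytes and 6.61 ± 1.08 CPM in SKO oocytes (SD, n = 3 each). The log2 fold change of 0.92 (SE 0.36, interval 0.11 to 1.73) was not called (edgeR, adjusted p = 0.0927). It depended on single DKO libraries, at 0.50 without replicate 1 and 1.18 without replicate 3, and the second of these passed the threshold (adjusted p = 0.0248).

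Since Kitl is a granulosa transcript, markers of granulosa and cumulus cells are given beside it. Their summed level was 709, 780 and 811 CPM in DKO replicates 1 to 3 and 551, 566 and 615 CPM in SKO replicates 1 to 3. Of 20 markers, 15 were tested, 7 were called higher and 1 lower, and Serpine2, Nr5a2 and Esr2 were the most abundant. Of all genes tested, 17.3% were called higher and 7.41% lower, and these shares stand beside each marker list here. Serpine2, which makes up much of the sum, was not called (388 CPM in DKO, 373 CPM in SKO). The markers with the largest rises, named after their values were seen, were Fshr with 1965 counts in DKO and 36 in SKO (5.91 on the log2 scale, edgeR adjusted p = 1.35e-06), Ptgs2 with 5557 in DKO and 270 in SKO (4.52) and Wt1 with 351 in DKO and 34 in SKO (3.46). Has2 (2.23), Gja1 (2.21), Inhba (2.01) and Nr5a2 (0.56) rose too, and Cyp19a1 fell by 0.82. Among markers with few or no counts, Ptx3 had no counts, Tnfaip6 had 0 counts in DKO and 1 in SKO, Amhr2 had 7 in DKO and 8 in SKO, and Foxl2 had 71 in DKO and 13 in SKO. The part of granulosa cells in the Kitl values was not tested. Markers of mast and blood cells, where Kit is also at work, summed to 5.68 to 9.23 CPM in DKO and 1.23 to 3.62 CPM in SKO, with Mcpt4, Tpsb2, Hba-a1 and Hbb-bs at 0 counts in all libraries. Of these markers 2 were tested and 1 was called higher, and Cd68, Fcer1a and Lyz2 were the most abundant. Markers of theca, stroma and endothelium, led by Pecam1, Tek and Cyp11a1, summed to 152 to 165 CPM in DKO and 130 to 175 CPM in SKO, and of 12 tested 6 were called higher and 1 lower.

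DKO libraries spread more than SKO libraries for each of the 5 genes. The coefficients of variation ran from 6.72% for Bmp15 to 45.9% for Kitl in DKO, and from 1.84% for Bmp15 to 16.3% for Kitl in SKO. DKO replicate 1, the library with the fewest counts, was lowest of the DKO libraries for Gdf9, Bmp6 and Kit and highest for Kitl. Across 14049 genes, the deviation of a library from its genotype mean correlated with transcript GC content at -0.347 and 0.375 (Spearman's rho) in DKO replicates 1 and 2 and at 0.0375 in DKO replicate 3, against -0.0482, 0.0938 and -0.0286 in the SKO libraries. Transcript GC content was 53% for Gdf9, 42.5% for Bmp15, 57.8% for Bmp6, 48.5% for Kit and 39.3% for Kitl. The part of this composition effect in the spread of the members was not tested.

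Per kilobase of transcript the levels ran from Gdf9 through Bmp15 to Bmp6 and Kit, with Kitl last, in both genotypes. Gdf9 stood at 2214 ± 820 CPM per kilobase in DKO and 3135 ± 359 in SKO, at rank 3 in each genotype. Bmp15 stood at 732 ± 49.2 in DKO and 1170 ± 21.5 in SKO, at ranks 13 and 11. Bmp6 (88.8 ± 22 in DKO, 126 ± 13.2 in SKO) and Kit (70.8 ± 8.46 in DKO, 126 ± 3.1 in SKO) did not separate, as their ranges overlapped in both genotypes. Kitl stood at 2.22 ± 1.02 in DKO and 1.17 ± 0.191 in SKO (all CPM per kilobase, SD, n = 3 each). Gdf9 exceeded Bmp15 by 3.02 times in DKO and 2.68 times in SKO, and Kit exceeded Kitl by 31.9 times in DKO and 107 times in SKO.

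Ratios between members within a library do not depend on how libraries are scaled, and 4 of them were compared. The Kit to Kitl ratio of counts was 19.2, 40.1 and 50.9 in DKO libraries and 112, 89 and 125 in SKO libraries, so the groups did not overlap. Its log2 mean was 5.09 ± 0.73 in DKO and 6.75 ± 0.25 in SKO (SD, n = 3 each), a difference of -1.66 (two-sided exact permutation test, p = 0.1, adjusted p = 0.4 over the 4 ratios). With 3 libraries against 3, 0.1 is the smallest p this test can give. The Bmp15 to Gdf9 ratio was 0.879, 0.62 and 0.371 in DKO libraries and 0.693, 0.647 and 0.574 in SKO libraries, spread on both sides of SKO. Its log2 difference was -0.12 (exact permutation p = 0.8, adjusted p = 0.9). The Bmp6 to Gdf9 ratio differed by 0.03 and the Kit to Gdf9 ratio by -0.27 on the log2 scale, with exact permutation p = 0.9 and 0.7 and adjusted p = 0.9 for both.

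**Figure D2:**
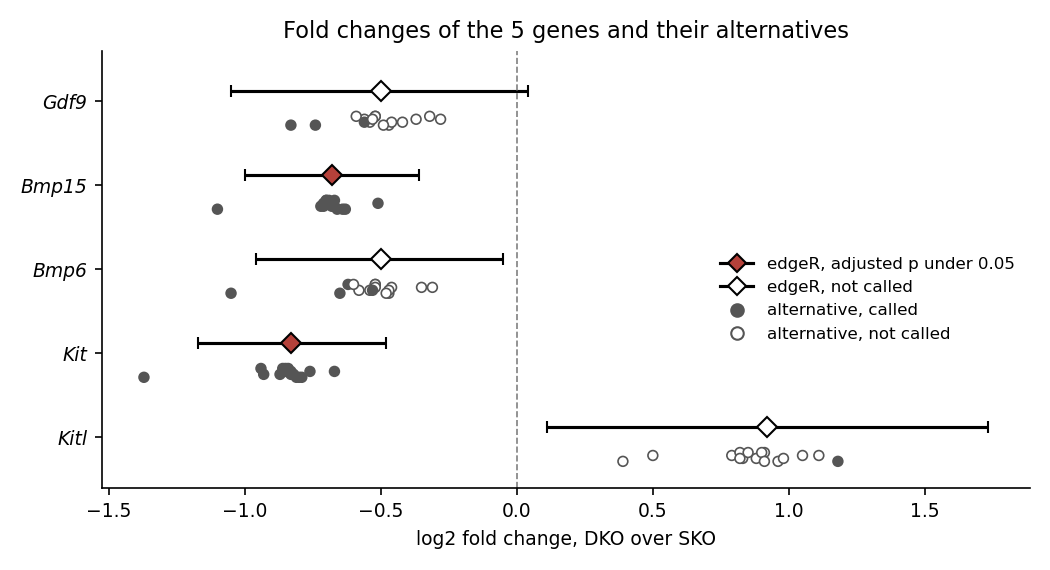
Log2 fold change, DKO over SKO, of the 5 genes with the 95% interval (diamonds, edgeR) and the values under 16 alternative settings (circles, filled where called at an adjusted p under 0.05). Bmp15 and Kit are filled throughout, and Gdf9, Bmp6 and Kitl cross the threshold under some settings.

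Against the table as a whole, falls were common among abundant genes. Of 2374 genes over 100 CPM in SKO, 18.8% were called lower, and their median log2 fold change was -0.24, against 0.04 over all genes tested. Gdf9, Bmp15, Bmp6 and Kit, 4 of the 5 members, lie in that range, and 2 of these 4 were called lower. Complete separation with DKO below SKO occurred in 19.6% of genes tested, and 3 of the 5 members showed it. Separation with DKO above SKO occurred in 24.7% of genes, and none of the 5 members showed it (Kitl overlapped). The summed oocyte markers given above were also lower in every DKO library than in any SKO library, and their part in the values of the members was not tested. With 5 members these counts describe the set and no more.

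**Figure D3:**
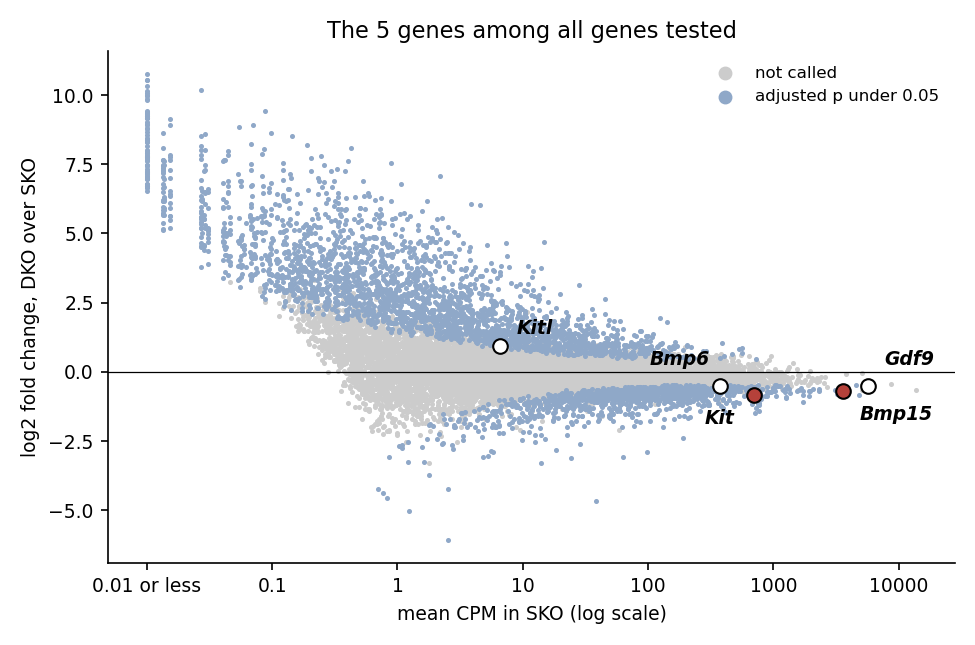
Log2 fold change, DKO over SKO, against the mean SKO level in CPM (log axis; genes below 0.01 CPM are drawn at 0.01) for the 14845 genes tested, blue where called. The 5 genes are circled, with Bmp15 and Kit filled in red as called lower and Kitl alone above 0.

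The nearest genes on each side of the members are given next. Kit lies between 2 other receptor tyrosine kinase genes, Pdgfra (the alpha receptor of platelet-derived growth factor) and Kdr (a receptor of vascular endothelial growth factor), and both were higher in DKO while Kit was lower. Pdgfra had 5.07, 5.21 and 4.7 CPM in DKO libraries and 1.09, 0.553 and 0.657 CPM in SKO libraries, a log2 fold change of 2.69 (edgeR, adjusted p = 0.00184). Kdr had 14.4, 14.1 and 6.33 CPM in DKO libraries and 4.79, 3.41 and 2.84 CPM in SKO libraries, a change of 1.65 (adjusted p = 0.0127). Both also stand in the marker list of theca, stroma and endothelium given above. They lie 376780 and 276104 bases from Kit. Beside Bmp15, Nudt10 rose (1.93, 82 counts in all DKO libraries together and 23 in all SKO libraries together, edgeR adjusted p = 0.0442), and Shroom4 stood at -0.09 (adjusted p = 0.774). Beside Bmp6, Snrnp48 rose (0.78, edgeR adjusted p = 0.0244), and Txndc5, which shares 49 bases with Bmp6, stood at -0.14. Uqcrq shares 58 bases with Gdf9 and stood at -0.23 with 1166 counts in all DKO libraries together and 1556 in all SKO libraries together, far fewer than Gdf9. The sources used here do not say whether reads were assigned by strand. Beside Kitl, Csl stood at -1.0 (edgeR, adjusted p = 0.0989), and Gm4303 had no counts. The lncRNA 4930579J19Rik, inside Bmp6, had 0 counts in DKO and 1 in SKO, and Shroom1, beside Gdf9, was not tested.

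Lists of the pathways around the members held 153 different tested genes, of which 38 were called higher and 19 lower, beside 17.3% and 7.41% of all genes tested. These shares over all genes are the background for the counts of each list below. The 5 members are in none of these lists. Many genes that rose were close to silent in SKO, and such genes passed the count filter with the help of the DKO libraries, so the shares that rose are in part set by the filter. Standard errors of genes with few SKO counts can be too small.

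Other ligands of the TGF-beta family moved in both directions. Of 28 listed, 15 were tested, 7 were called higher and 2 lower, with a median log2 fold change of 0.89 against 0.04 over all genes tested. The higher count was 4 without SKO replicate 1 or 2, and the lower count 1 without SKO replicate 3 or with library totals alone. Bmp2, a bone morphogenetic protein, had 34.2, 27.4 and 22.8 CPM in DKO libraries and 0.0805, 0 and 0.0822 CPM in SKO libraries, a log2 fold change of 8.83 that rests on 4 SKO counts (edgeR, adjusted p = 3.06e-06). Gdf11 rose by 2.90, Bmp4 by 5.11 and Bmp7 by 2.55, to 6.62, 5.44 and 34.3 CPM in DKO. Bmp5, outside the naming rule and named after its values were seen, had 595, 337 and 470 CPM in DKO libraries and 265, 258 and 307 CPM in SKO libraries (0.76, adjusted p = 0.0253). It was called under 11 of the 16 alternatives, with values of 0.30 to 0.94. Tgfb2 fell: it had 205, 177 and 180 CPM in DKO libraries and 365, 335 and 396 CPM in SKO libraries, a change of -0.96 (edgeR, adjusted p = 0.00161). Tgfb3 fell by 0.90 to 31.5 CPM in DKO, against 58.7 CPM in SKO (adjusted p = 0.016), and lost its call under 2 of the 16 alternatives. Among called genes, Tgfb2 and Tgfb3 were lower, as was Bmp15, while Bmp2, Bmp4 and Bmp7 were higher. Bmp2 and Bmp4 had 4 and 11 counts in all SKO libraries together, and Bmp3, Bmp6 and Bmp8b were not called.

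Receptors and Smads of the family, which carry the ligand signal to the nucleus, had 7 of 19 tested genes called higher and 0 lower, with a median of 0.50 on the log2 scale. At an unadjusted p under 0.05, 1 of the 19 was lower, and DESeq2 and limma-voom called 0 lower. The higher count was 4 without DKO replicate 1, SKO replicate 1 or SKO replicate 3, and the lower count was 1 without DKO replicate 3 and 7 with the uncentred removal of the GC and length trend, which left 4 higher. Acvr1, a type I receptor of bone morphogenetic proteins, had 60.5, 75.4 and 66.9 CPM in DKO libraries and 19.7, 27.8 and 23.2 CPM in SKO libraries, a log2 fold change of 1.52 (edgeR, adjusted p = 0.00054). Acvr2b rose by 1.21 to 110 CPM in DKO, against 47.3 CPM in SKO. Smad7, an inhibitor of the pathway, had 25.1, 15.1 and 5.05 CPM in DKO libraries and 0.684, 0.368 and 0.205 CPM in SKO libraries, a change of 5.14 (adjusted p = 0.000433). Smad5 (1.09) and Tgfbr1 (0.84) were called with smaller values and lost the call under 6 and 5 of the 16 alternatives. Acvrl1 had 45 counts in all DKO libraries together and 1 in all SKO libraries together, a ratio of 49.4 with a 95% counting interval of 8.42 to 1993. Bmpr2, the type II receptor used by GDF9 and BMP15, was not called (680 ± 177 CPM in DKO, 479 ± 44.2 CPM in SKO, edgeR adjusted p = 0.099), and neither was Bmpr1b (359 ± 72 CPM in DKO, 433 ± 31.9 CPM in SKO, adjusted p = 0.307).

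Among genes that process or antagonise the ligands, 5 of 15 tested were called higher and 1 lower, with a median of 0.55. Furin, a proprotein convertase that cleaves ligand precursors, fell: 131, 221 and 177 CPM in DKO libraries against 277, 319 and 348 CPM in SKO libraries, a log2 fold change of -0.84 (edgeR, adjusted p = 0.015), and the call was lost without SKO replicate 2 or 3 (adjusted p = 0.0512 and 0.0658). Of related convertases, Pcsk6 rose by 1.33 to 43.6 CPM in DKO (17.3 CPM in SKO). Pcsk5 rose by 1.44 to 6.14 CPM in DKO (2.25 CPM in SKO), a call lost under 5 of the 16 alternatives, and Pcsk7 was not called (-0.81, 5.06 CPM in DKO, 8.92 CPM in SKO). Chrdl1, a secreted antagonist of bone morphogenetic proteins, had 188, 73 and 110 CPM in DKO libraries and 0.282, 3.18 and 1.68 CPM in SKO libraries, a change of 6.19 (adjusted p = 0.000126). Bambi (3.31) and Htra1 (0.76) were called too. Bambi lost the call under 4 of the 16 alternatives, with values of 2.70 to 6.09 when 1 library was left out, and Htra1 lost it under 7. The count of higher genes in this list was 2 without SKO replicate 1 or 2 and 3 without DKO replicate 1 or 2, and the count of lower genes was 0 without SKO replicate 2 or 3 and 2 without DKO replicate 3.

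Downstream of Kit, 60 of 60 listed signal transduction genes were tested, and 8 were called higher and 8 lower. Of all genes tested, 17.3% were called higher and 7.41% lower. The median log2 fold change of the list was -0.12. The lower count depended on the setting: it was 4 without any 1 SKO library, 5 with library totals alone and 30 with the uncentred removal of the GC and length trend. Cblb, a ubiquitin ligase of the Cbl family that acts on activated receptor tyrosine kinases, had 102, 125 and 145 CPM in DKO libraries and 3.54, 5.48 and 6.45 CPM in SKO libraries. Its log2 fold change was 4.59 (edgeR, adjusted p = 3.42e-06). Mtor, the kinase at the centre of growth signalling, had 61.3, 83.2 and 102 CPM in DKO libraries and 166, 203 and 166 CPM in SKO libraries, a change of -1.12 (adjusted p = 0.00348). Tsc1, an inhibitor of that kinase, fell by 0.86 (100 CPM in DKO, 182 CPM in SKO). The adaptor Gab1 rose by 1.42, and Stat5b (4.78) and Src (2.79) rose from 6 and 25 counts over the SKO libraries. Foxo3, the transcription factor at the end of the pathway, was not called (534 ± 184 CPM in DKO, 610 ± 65.8 CPM in SKO, edgeR adjusted p = 0.603).

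Other receptor tyrosine kinases of the class to which Kit belongs, with their ligands, had 4 of 9 tested genes called higher and 0 lower by edgeR, with a median of 0.90. At an unadjusted p under 0.05 1 was lower. Of the 16 alternatives 7 called 1 lower, among them DESeq2, limma-voom and edgeR without DKO replicate 2. The gene these alternatives called was Il34 (-0.83, 16.6 CPM in DKO, 29.6 CPM in SKO, edgeR adjusted p = 0.0734 in the main fit). Flt3, which is known from blood progenitors, had 8.71, 5.4 and 3.11 CPM in DKO libraries and 0.282, 0.507 and 0.123 CPM in SKO libraries, a log2 fold change of 4.23 (edgeR, adjusted p = 0.000984). Besides Pdgfra, the ligand genes Pdgfa (1.83) and Csf1 (0.90, called under 12 of the 16 alternatives) rose. Kit itself, the most abundant receptor of this class here (708 CPM in SKO), fell in libraries where Flt3 and Pdgfra rose. Those 2 genes rose from 0.304 and 0.766 CPM in SKO.

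A list of 17 genes held oocyte transcription factors with a few other regulators (Ybx2 and Lin28a bind RNA, and Kdm5b is a histone demethylase). All 17 were tested, 3 were called higher and 1 lower, with a median of 0.02. These counts lie near the shares over all genes tested, 17.3% higher and 7.41% lower. The lower count was 2 without DKO replicate 1 or 2 and 6 with the uncentred removal of the GC and length trend. Sohlh1 and Sohlh2, basic helix-loop-helix factors of early oocyte growth, rose by 5.85 and 3.48. Sohlh2 had 45.4, 59.3 and 49.6 CPM in DKO libraries and 6.56, 3.55 and 3.7 CPM in SKO libraries (edgeR, adjusted p = 3.08e-05). Gata4 had 129, 128 and 133 CPM in DKO libraries and 56.1, 47 and 54 CPM in SKO libraries, a log2 fold change of 1.31 (adjusted p = 0.000328). Ybx2, which packages stored mRNA in oocytes, fell by 0.95 (77.8, 135 and 105 CPM in DKO libraries, 195, 213 and 205 CPM in SKO libraries). Nobox, Lhx8 and Figla did not pass the threshold, at -0.09, 0.30 and -0.68 on the log2 scale (edgeR, adjusted p = 0.757, 0.25 and 0.124).

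Genes of the exchange between oocyte and granulosa cells included abundant oocyte transcripts that fell. Of 20 tested, 4 were called higher and 7 lower, with a median of -0.13. The lower count was 3, 2 and 3 without SKO replicates 1, 2 and 3, and the higher count was 2 without SKO replicate 1. Jag1, a Notch ligand on the oocyte, had 540, 611 and 497 CPM in DKO libraries and 863, 967 and 924 CPM in SKO libraries, a log2 fold change of -0.74 (edgeR, adjusted p = 0.00613). Fgf8, a growth factor secreted by oocytes beside GDF9 and BMP15, had 7.18, 16.3 and 5.67 CPM in DKO libraries and 26.8, 35.7 and 26.5 CPM in SKO libraries, a change of -1.61 (adjusted p = 0.0115). Gpr3, the receptor that keeps cyclic AMP high and holds meiotic arrest, fell by 0.94 (81.9 CPM in DKO, 157 CPM in SKO), called under 15 of the 16 alternatives. The gap junction gene Gjc1 (3.65, 21 CPM in DKO, 1.66 CPM in SKO) and Cdh2 (1.08, called under 13 of the 16 alternatives) rose. Gja4, a far more abundant gap junction gene, was not called (-0.76, 346 CPM in DKO, 587 CPM in SKO, edgeR adjusted p = 0.0501). Every DKO library lay below every SKO library for Gja4, and it was called lower under 9 of the 16 alternatives. Nppc, which granulosa cells are known to express, had 278 counts in all DKO libraries together and 1 in all SKO libraries together, a ratio of 305 with a 95% counting interval of 54.3 to 12092. The granulosa marker sums given beside Kitl were higher in DKO. Gja1, called higher, stands in this list and among the granulosa markers. Zp1, Zp2 and Zp3, called lower, stand in this list and among the oocyte markers given above, so these are the same falls. Of genes over 100 CPM in SKO, as the Zp genes are, 18.8% were called lower. The part of granulosa cells in the values of this list was not tested.

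**Figure D4:**
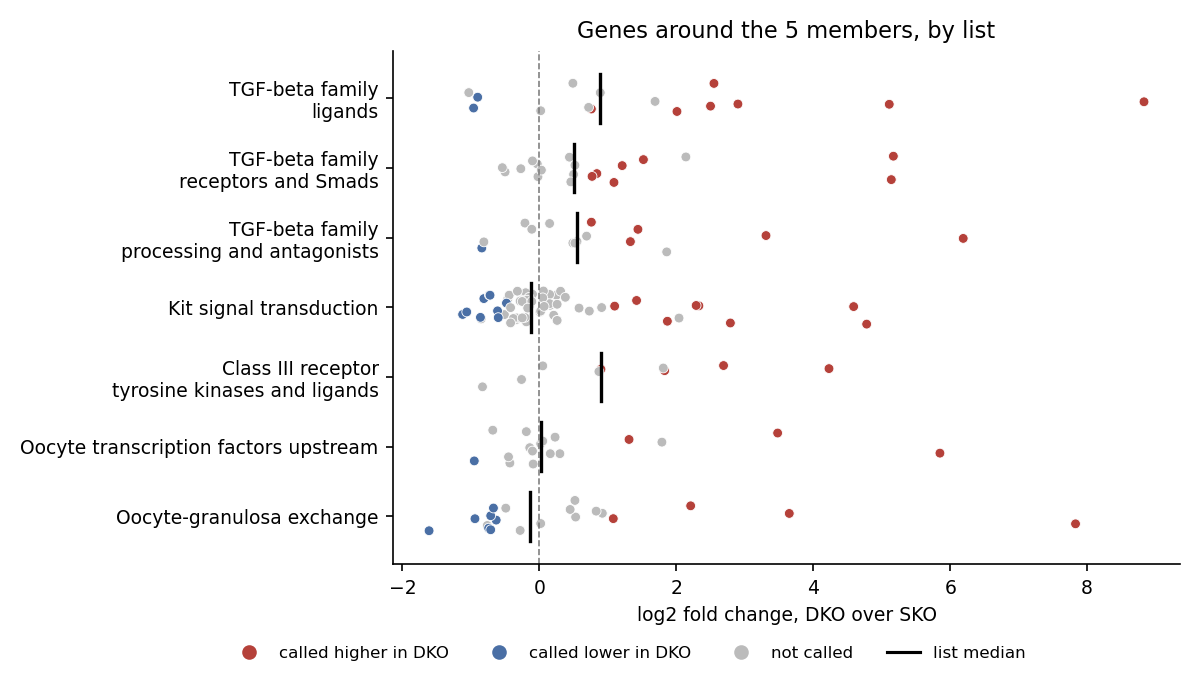
Log2 fold change, DKO over SKO, of every tested gene in 7 lists (points, red called higher, blue called lower, grey not called), with black bars at the list medians and random vertical spread. The medians run from -0.13 for oocyte-granulosa exchange to 0.90 for class III receptor tyrosine kinases and ligands.

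The genes whose levels followed each member most closely over the 6 libraries were found among 9768 genes. Pearson's r of log2 CPM is given as a description, since all points share the genotype difference and library depth. Gdf9 was followed by Mlxipl (0.997), Ttc17 and Supt6 (0.993 each), Bmp15 by Tbce (0.998), Pdia4 and B3galnt2 (0.997 each), and Bmp6 by Grm4 (0.999), Smad3 (0.997) and Sf3b3 (0.996). Kit was followed by BC005624 (0.998), Atl1 and Slc9b1 (0.997 each), and Kitl by Tfdp2 (0.996), Efr3b (0.990) and Tbl1xr1 (0.988). Smad3, which carries signals of activins and TGF-beta, had 289 CPM in DKO and 408 CPM in SKO and, like Bmp6, was not called (edgeR, adjusted p = 0.0869). Among genes within 1 log2 unit of the level of each member per kilobase, Gdf9 had only 4 candidates. The closest to it were Zbed3 (0.954), Spin1 (0.843) and Elobl (0.763), less alike than the genes named above. For Bmp15 the closest were Oosp1, D10Wsu102e and Rdx (of 37), and for Bmp6 Smad3, Sgf29 and Usp30 (of 907). For Kit they were Eif4b, Atf4 and Baiap2l1 (of 1017), and for Kitl Itgav, Plekhf2 and Slc25a24 (of 1788). Oosp1, an oocyte-secreted protein gene, followed Bmp15 at r = 0.985 and fell by 0.67 (edgeR, adjusted p = 0.0119). As it was picked for its likeness to Bmp15 over these same libraries, its fall is not separate evidence.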

How the data were processed

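RNA-seq was run on 3 DKO and 3 SKO libraries of GV oocytes. The authors deposited these as raw, unnormalised read counts by Entrez gene in 1 table, with gene lengths in bases; 0 sample columns were left unused. The submitters' processing notes name STAR 2.5.0a and, as builds, GRCm38 and mm10. The counter, annotation, strand and handling of multi-mapped reads were not given in the sources used here. Per the labels' protocols, RNA was amplified with the Ovation v2 kit, and the labels describe the samples as a renewed analysis of earlier ones. Replicates were taken as separate animals because the labels name 1 mouse per library.

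Identifiers were matched to RefSeq GRCm38.p6 (24387 of 24421). In R 4.3.3, edgeR 4.0.16 filtered the counts with filterByExpr (minimum count 10, total 15), scaled them with TMM and compared DKO with SKO by the two-sided quasi-likelihood test. P-values were adjusted by Benjamini-Hochberg over 14845 genes and genes called at an adjusted p under 0.05. DESeq2 1.42.0 and limma 3.58.1 were alternatives. Standard errors were taken from the F statistic. Ratios used counts plus 0.5 and an exact permutation test. Intervals of fold changes come from the edgeR fit and include the spread between libraries; those of count ratios, and the floor of 3 counts, cover counting error only. Code was tested on simulated data.

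The members and the 7 pathway lists were chosen with earlier results of these data known. The text names the members, Rnf2 and Ring1, up to 6 called genes per pathway list by adjusted p, the 3 most abundant genes per marker list, the nearest gene with a table row on each side of a member, and the 3 genes most correlated with each member (average log2 CPM of at least 2, prior count 2); further genes of a pathway are named for their role. The promoter windows and the capitals that mark CpGs were set after the data had been seen, as was the limit of neighbours to genes with a row. The result of 1 further gene is not reported here.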

Additional observations from a re-analysis of the deposited data

How the results depend on the processing

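Bmp15 and Kit were called lower under each of the 16 alternatives run, with log2 fold changes of -1.10 to -0.51 and -1.37 to -0.67. Gdf9, Bmp6 and Kitl kept their direction under all 16, and passed the threshold under some of them only. Library totals in place of TMM moved the median of all genes tested to 0.20 from 0.04, and there Bmp15 stood at -0.51, Kit at -0.67 and 596 genes were called lower.

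The planned removal of a GC and length trend also took out the level of the fitted trend in each library, and the median of 14049 genes then stood at -0.36. Gdf9 was called at -0.74 and Bmp6 at -1.05, 4516 genes were called lower in all, and 57 in the pathway lists. A version centred at the median of each library was added after these values had been seen. It left the median at 0.06, Gdf9 uncalled at -0.32, Bmp6 called at -0.62 and 1420 genes called lower. Both versions are given because the choice decides the Gdf9 call.

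Same-numbered libraries of DKO and SKO correlated in their deviations at 0.139, 0.0773 and 0.0479, and since not every pair passed 0.1 the numbers were not taken to pair the samples, although each library correlated best with its own number. With a replicate block, Gdf9 was called at -0.56 and Bmp6 at -0.53, and 2651 genes were called higher and 1364 lower.

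Leaving out 1 library at a time gave -0.83 to -0.28 for Gdf9, -0.65 to -0.31 for Bmp6 and 0.50 to 1.18 for Kitl, and the 3 called values came without DKO replicate 3. The log2 differences ran from -0.41 to 0.21 for the Bmp15 to Gdf9 ratio, from -0.06 to 0.17 for Bmp6 to Gdf9 and from -0.47 to 0.03 for Kit to Gdf9, so their direction is not settled, and from -1.96 to -1.25 for Kit to Kitl. Genes called lower numbered 434 to 1501, with 516, 464 and 434 without SKO replicates 1, 2 and 3. In the pathway lists, genes called higher numbered 25 to 41, lowest without SKO replicate 1, and genes called lower 9 to 22, with 11, 9 and 9 without SKO replicates 1, 2 and 3. Fewer libraries enter each of these fits. Of 38 named pathway genes, 27 kept the call under all 16 alternatives, Acvrl1 kept it under the 14 that tested it, 10 lost it under 1 or more, and none reversed. Kitl had the fewest counts of the 5 members, 141 to 330 per library, so counting error weighs most on it.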
